A study of Mus musculus with 9 samples.

Results

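The comparison described here sets the 6 libraries that carry an shRNA, 3 with an shRNA against Smndc1 and 3 with an shRNA against Atrx, against the 3 libraries of empty vector. It was chosen by the labels alone and takes in 9 of the 9 libraries of the series and all 80827 consensus regions on mm10. Accessible chromatin was measured by ATAC-seq, in which a transposase inserts sequencing adapters where DNA is open, in alphaTC1 cells, a mouse cell line of the glucagon-producing pancreatic alpha cell, 5 days after transduction. Each group holds 3 biological replicates per the labels, which do not say whether these were separate transductions. A p value therefore measures the spread between these libraries of a single cell line. The Smndc1 libraries carry the shRNA coded sh95, and the labels give no code for the Atrx shRNA. The labels describe the control as empty vector and name no shRNA for it, so what the knockdowns share and what the expression of any shRNA brings cannot be told apart. The libraries held 5290810 to 8145228 counts in the regions. Replicate 3 of each group stood apart: its strongest 10% of regions held 38.56% to 38.8% of the counts, against 43.28% to 48.83% in the other 6 libraries.

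Smndc1 encodes a Tudor-domain protein of the U2 spliceosome. Atrx encodes a chromatin remodeler that, with Daxx, deposits histone H3.3 in heterochromatin and at telomeres. Alpha cell identity rests on transcription factors such as Irx1, Irx2, Pax6 and Foxa2, whereas Pdx1, Nkx6-1 and Mafa are known from the insulin-producing beta cell. An shRNA is cut by Dicer into a small RNA that guides Argonaute to its target transcript, and double-stranded RNA can also be sensed by the interferon system. Accessibility at a gene says how open its DNA is and not how much RNA it makes.

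Open regions were checked against cell type markers whose promoter is in the table used. Regions overlapped the promoter of 3 of 3 alpha cell markers (Gcg, Irx2 and Pou3f4) and of 4 of 4 pan-endocrine markers. They overlapped 1 of 4 for beta cells (Nkx6-1), 0 of 2 for delta cells, 0 of 3 for acinar cells, 0 of 1 for endothelial cells, 1 of 2 for immune cells (Cd68) and 0 of 1 for fibroblasts. The promoter regions of the targeted genes did not move in a way the test could detect: the pooled log2 fold change was -0.05 ± 0.11 (SE) at Smndc1 (edgeR adjusted p = 0.901) and -0.03 ± 0.16 at Atrx (adjusted p = 0.967), with trended offsets. An shRNA acts on the RNA, so these values do not check the knockdowns.

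Few regions separated the shRNA libraries from empty vector with ordinary scaling. Of 80345 regions tested, 7 passed (0.00871%): 3 were more open (0.00373%) and 4 less open (0.00498%) with an shRNA. In 6 of the 7 the groups did not overlap, which held for 1.37% (all shRNA libraries above) and 1.91% (all below) of the regions tested. The more open regions lie inside Irx1, Mif4gd and Snap47. The less open regions lie inside Pdzd2 and Unc80 and far from Stpg2 and Rassf9. A region is called here when the quasi-likelihood F test of edgeR, with TMM library factors and equal weight for each shRNA, gives a Benjamini-Hochberg adjusted p under 0.05. Levels are in CPM, counts relative to the size of the library, after the same scaling.

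The region inside Irx1 (chr13:71959221-71959757), an Iroquois homeobox gene of alpha cells, stood at 9.92, 10.9 and 8.45 CPM in the 3 empty vector libraries. It stood at 21.6, 19.2 and 22.7 CPM with Smndc1 shRNA and at 28.3, 16.2 and 15.7 CPM with Atrx shRNA. All 6 shRNA libraries were above all 3 controls, with a pooled log2 fold change of 1.08 ± 0.21 (SE; n = 6 against 3; edgeR adjusted p = 0.0307). The fold change was 1.11 with Smndc1 and 1.04 with Atrx shRNA.

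Mif4gd encodes a partner of the protein that binds histone mRNA stem-loops. The region inside it (chr11:115609141-115609844) stood at 9.33, 11.0 and 8.77 CPM with empty vector, at 17.2, 23.2 and 21.0 with Smndc1 shRNA and at 17.7, 21.4 and 20.8 with Atrx shRNA. The groups did not overlap, and the log2 fold change was 1.05 ± 0.21 (edgeR adjusted p = 0.0306). Snap47 encodes a SNARE protein of membrane fusion. The region inside it (chr11:59446868-59447368) was weaker, at 1.78, 1.82 and 3.44 CPM with empty vector against 4.71, 9.15 and 7.95 with Smndc1 shRNA and 12.2, 6.68 and 6.65 with Atrx shRNA. Its log2 fold change of 1.75 ± 0.34 was the highest of the 7 (edgeR adjusted p = 0.0306).

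Among the regions that fell, the one inside Pdzd2 (chr15:12366012-12366644), a gene for a protein with PDZ domains, had the tightest controls. It stood at 23.4, 21.9 and 21.6 CPM with empty vector, at 6.47, 10.8 and 9.14 with Smndc1 shRNA and at 13.0, 17.2 and 11.8 with Atrx shRNA. The groups did not overlap (-1.01 ± 0.19, edgeR adjusted p = 0.0306). The fold change was -1.34 with Smndc1 shRNA and -0.68 with Atrx shRNA, and the test of that difference did not pass (adjusted p = 0.551).

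The region 92.58 kb from Stpg2 (chr3:139802882-139803389) had the lowest adjusted p. It stood at 29.3, 23.3 and 19.1 CPM with empty vector, at 10.4, 9.49 and 5.08 with Smndc1 shRNA and at 16.1, 16 and 8.60 with Atrx shRNA, again without overlap (-1.17 ± 0.20, edgeR adjusted p = 0.0182). The region 212.44 kb from Rassf9 (chr10:102762177-102762882) stood at 19.0, 14.0 and 12.7 CPM with empty vector, at 7.35, 6.10 and 3.89 with Smndc1 shRNA and at 8.03, 8.21 and 7.14 with Atrx shRNA (-1.18 ± 0.22, edgeR adjusted p = 0.0306). Unc80 encodes a subunit of a sodium leak channel. The region inside it (chr1:66495295-66495838) was the only one of the 7 whose groups overlapped: it stood at 15.1, 12.6 and 6.11 CPM with empty vector, at 3.97, 2.03 and 3.38 with Smndc1 shRNA and at 6.91, 4.96 and 4.22 with Atrx shRNA (-1.45 ± 0.28, edgeR adjusted p = 0.0306).

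**Figure D1:**
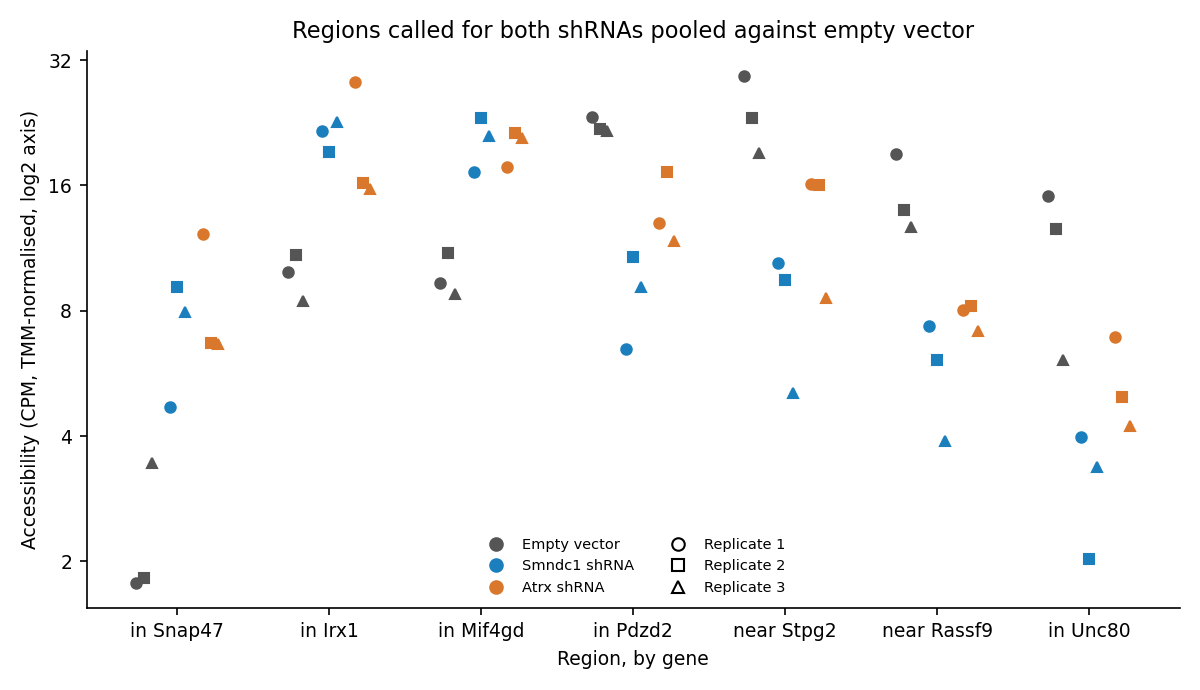
Accessibility of the 7 regions called with TMM factors, in CPM on a log2 axis, 1 point per library; color gives the group and marker shape the replicate number. The 3 regions on the left are higher in all 6 shRNA libraries than in the 3 empty vector libraries, and the 4 on the right are lower, with overlap only inside Unc80.

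The 7 calls depended on single libraries. Without empty vector replicate 1 the 7 had adjusted p values of 0.865 to 0.875, and without empty vector replicate 2 of 0.247 to 0.421. In each of these fits 0 regions were called by edgeR, with 3441 and 3697 at an unadjusted p under 0.05. Of the 7, 4 were kept without Atrx shRNA replicate 1, 4 without Atrx shRNA replicate 2, 5 without Smndc1 shRNA replicate 1 and 4 without Smndc1 shRNA replicate 2. Among those lost, Irx1 had an adjusted p of 0.117 and Snap47 of 0.119 without Atrx shRNA replicate 1, Mif4gd of 0.145 and Unc80 of 0.0643 without Atrx shRNA replicate 2, and Pdzd2 of 0.13 without Smndc1 shRNA replicate 1. All 7 were kept without the replicate 3 library of any group. Over the fits without 1 library, the log2 fold change ran from 0.91 to 1.17 inside Irx1, 0.98 to 1.16 inside Mif4gd and 1.57 to 2.12 inside Snap47. It ran from -1.10 to -0.91 inside Pdzd2, -1.29 to -0.99 near Rassf9 and -1.75 to -1.19 inside Unc80. With all 9 libraries 5889 regions (7.33%) were at an unadjusted p under 0.05.

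The contrast between strong and weak regions differs among libraries, as the replicate 3 libraries show. A second fit was therefore made with trended offsets, in which a smooth curve of each library against the mean level replaces its single factor. In this fit 537 regions passed (0.668%), 270 of them more open with an shRNA (0.336%) and 267 less open (0.332%), and the 7 regions above were all among them. All 537 had the same direction with TMM factors, and 463 of them had an unadjusted p under 0.05 there. The median log2 fold change over all regions was -0.008 with trended offsets and 0.007 with TMM factors. Values below come from the trended fit unless TMM is named, and its adjusted p values are those of edgeR.

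The trended calls were mostly modest. The 270 higher regions had a median log2 fold change of 0.66, from 0.36 to 3.05, and 96 of them changed less than 1.5-fold. The 267 lower regions had a median of -0.61, from -0.31 to -2.12, with 128 under 1.5-fold. Groups did not overlap in 197 of the higher and 188 of the lower regions. Over all regions tested, 2.24% had every shRNA library above every control and 2.48% had every one below. The fold of 3.05 belongs to a region near Vmn1r223 that held 0, 0.317 and 0.449 CPM in empty vector, so its size depends on the small count added by the fit.

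**Figure D2:**
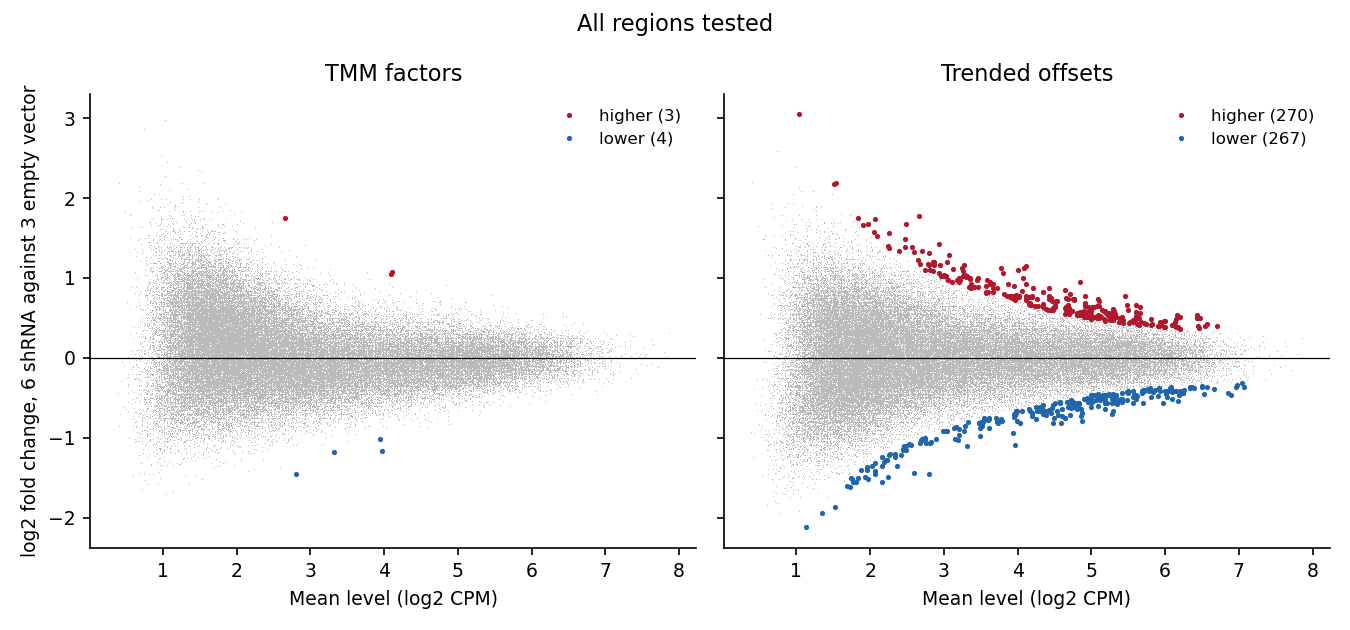
Log2 fold change of the 6 shRNA libraries against the 3 empty vector libraries (vertical axis) by mean level in log2 CPM (horizontal axis) for the 80345 regions tested, with TMM factors on the left and trended offsets on the right; red and blue points are regions called higher and lower. The weaker regions sit above 0 with TMM factors and around 0 with trended offsets, where 270 regions are called higher and 267 lower.

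The promoters that became less open and those that became more open differed in how often they hold a CCAAT box. Among 8666 regions that overlap the window from 250 bases before to 50 bases after a RefSeq gene start, 49 were lower with an shRNA (0.565%) and 38 higher (0.438%). With TMM factors 0 promoter regions were called. The CCAAT box, bound in most promoters by the trimeric factor NF-Y, was searched as the letters CCAAT on either strand. It was present in 40 of the 49 lower promoters (81.6%), in 8 of the 38 higher promoters (21.1%) and in 3424 of all 8666 (39.5%). The letters and the promoters were chosen with the fold changes known, so these shares are a description.

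The sequences show the feature. Each is the 250 bases before the start, read 5′ to 3′ on the strand of the gene, from RefSeq on GRCm38.p6 (mm10), and capitals mark CCAAT or its reverse complement ATTGG. The first 4 are lower promoters with a large fold change, and the fifth is the called promoter with the most copies.
Akap3, chr6:126852848-126853097, + strand: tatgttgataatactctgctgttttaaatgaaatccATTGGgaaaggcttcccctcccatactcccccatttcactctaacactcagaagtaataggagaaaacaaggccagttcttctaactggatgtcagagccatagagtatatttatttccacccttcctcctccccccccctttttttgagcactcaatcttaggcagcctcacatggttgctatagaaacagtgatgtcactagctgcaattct
Gng7, chr10:81014926-81015175, - strand: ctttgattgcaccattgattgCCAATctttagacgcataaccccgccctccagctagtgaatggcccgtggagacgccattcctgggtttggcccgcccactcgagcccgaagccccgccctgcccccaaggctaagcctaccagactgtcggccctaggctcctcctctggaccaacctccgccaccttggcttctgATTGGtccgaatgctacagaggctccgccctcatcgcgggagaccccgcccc
Cyp46a1, chr12:108334066-108334315, + strand: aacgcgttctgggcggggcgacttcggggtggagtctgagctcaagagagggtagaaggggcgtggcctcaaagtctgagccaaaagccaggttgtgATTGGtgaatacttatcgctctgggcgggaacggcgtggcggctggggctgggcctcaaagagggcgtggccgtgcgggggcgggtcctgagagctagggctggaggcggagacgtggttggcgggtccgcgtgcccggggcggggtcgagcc
Rab22a, chr2:173659595-173659844, + strand: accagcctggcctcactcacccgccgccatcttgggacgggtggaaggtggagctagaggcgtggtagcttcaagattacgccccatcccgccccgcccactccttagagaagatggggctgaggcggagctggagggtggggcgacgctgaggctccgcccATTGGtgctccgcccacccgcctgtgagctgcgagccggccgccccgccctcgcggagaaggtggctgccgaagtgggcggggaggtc
Ube2c, chr2:164769679-164769928, + strand: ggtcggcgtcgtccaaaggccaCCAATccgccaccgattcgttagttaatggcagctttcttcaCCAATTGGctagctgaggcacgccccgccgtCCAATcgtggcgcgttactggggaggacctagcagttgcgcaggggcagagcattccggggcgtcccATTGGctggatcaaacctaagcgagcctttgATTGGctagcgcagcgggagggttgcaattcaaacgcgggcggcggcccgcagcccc

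The next 3 belong to promoters that became more open, and they hold 0 copies in these 250 bases. They were picked as examples without a rule. Of the 38 higher promoters 8 hold a copy in the window, that of Usp7 among them. In the whole window Cdkn2c has 1 copy, after the start.
Cdkn2c, chr4:109665373-109665622, - strand: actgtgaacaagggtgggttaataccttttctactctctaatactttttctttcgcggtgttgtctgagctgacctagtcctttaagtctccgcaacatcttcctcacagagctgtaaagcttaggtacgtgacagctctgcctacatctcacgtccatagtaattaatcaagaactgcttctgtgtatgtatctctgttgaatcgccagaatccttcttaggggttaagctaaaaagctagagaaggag
Pde8a, chr7:81213015-81213264, + strand: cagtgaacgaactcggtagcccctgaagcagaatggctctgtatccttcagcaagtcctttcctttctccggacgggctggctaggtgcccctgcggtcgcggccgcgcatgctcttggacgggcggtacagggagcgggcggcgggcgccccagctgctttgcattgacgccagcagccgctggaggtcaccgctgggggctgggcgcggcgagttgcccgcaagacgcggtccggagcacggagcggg
Bbc3, chr7:16310011-16310260, + strand: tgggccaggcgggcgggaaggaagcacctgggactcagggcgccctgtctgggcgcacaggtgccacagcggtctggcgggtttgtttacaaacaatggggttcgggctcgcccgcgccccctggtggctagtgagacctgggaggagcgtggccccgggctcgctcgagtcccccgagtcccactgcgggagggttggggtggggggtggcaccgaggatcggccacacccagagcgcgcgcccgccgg

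Akap3 encodes an anchoring protein for protein kinase A in the sperm tail. Its promoter region stood at 12.9, 20.9 and 14.1 CPM with empty vector, at 7.76, 8.11 and 4.94 with Smndc1 shRNA and at 12.4, 9.16 and 6.65 with Atrx shRNA. All 6 shRNA libraries were below the controls (-0.98 ± 0.21, adjusted p = 0.00419), although the highest of them, 12.4, was close to the lowest control, 12.9.

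The promoter of Rab22a, which encodes an endosomal GTPase, fell as well. It stood at 76.9, 80.8 and 77.6 CPM with empty vector, at 59, 42.9 and 47.3 with Smndc1 shRNA and at 58.3, 51.6 and 58.1 with Atrx shRNA (-0.57 ± 0.10, adjusted p = 0.000262). This call held when any of the 9 libraries was left out. The promoter of Gng7, a G protein gamma subunit gene, fell from 35.1, 38.3 and 39.3 CPM to 25.3, 22.9 and 28.6 with Smndc1 shRNA and 21.5, 26.4 and 19.9 with Atrx shRNA (-0.64 ± 0.13, adjusted p = 0.00212). The promoter of Cyp46a1, the brain cholesterol 24-hydroxylase, fell from 48.2, 59 and 46.8 CPM to 40, 28.8 and 32.6 and to 32, 31.1 and 42.7 (-0.58 ± 0.12, adjusted p = 0.00168). That of Map9, a gene of the mitotic spindle, fell by 0.54 ± 0.10 on the log2 scale (adjusted p = 0.000266). The calls at Akap3, Gng7 and Cyp46a1 were lost without empty vector replicate 2, at adjusted p values of 0.333, 0.0765 and 0.197, and that at Map9 without empty vector replicate 1, at 0.0545.

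Ube2c encodes a ubiquitin-conjugating enzyme of the anaphase-promoting complex. It holds 6 copies, and its promoter region stood at 88.5, 85.8 and 107 CPM with empty vector, at 74.6, 72.2 and 82.2 with Smndc1 shRNA and at 65.5, 78.3 and 67 with Atrx shRNA. The groups did not overlap, but the fold was small and the call marginal (-0.36 ± 0.10, adjusted p = 0.041). It held without Smndc1 shRNA replicate 3 and without Atrx shRNA replicate 2 only, and the highest adjusted p, 0.275, came without empty vector replicate 3.

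The 5 promoters of the rule that rose belong to Cdkn2c, Pdcd7, Pde8a, Zmynd11 and Usp7. At Cdkn2c, which encodes the cyclin-dependent kinase inhibitor p18, the promoter region stood at 21.6, 17.3 and 15.7 CPM with empty vector, at 26.1, 32.3 and 27 with Smndc1 shRNA and at 35.2, 34.6 and 27.3 with Atrx shRNA (0.73 ± 0.15, adjusted p = 0.00165). At Pde8a, a cAMP phosphodiesterase gene, it stood at 14.2, 16.3 and 15.3, at 21.1, 24.7 and 30.7, and at 18, 28.8 and 27.9 in the same order (0.71 ± 0.16, adjusted p = 0.00944). Pdcd7, a gene of the minor spliceosome, changed by 0.71 ± 0.16 (adjusted p = 0.00736). Zmynd11, which encodes a reader of methylated histone H3.3, changed by 0.65 ± 0.14 (adjusted p = 0.00382), and Usp7, a deubiquitinase gene, by 0.63 ± 0.15 (adjusted p = 0.0151). Without empty vector replicate 2 all 5 were lost, at adjusted p values of 0.0768 for Cdkn2c, 0.0942 for Pde8a, 0.072 for Pdcd7, 0.108 for Zmynd11 and 0.196 for Usp7.

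Fold changes over all promoters, called or not, were ordered by the number of copies as well. Over all 8666 promoter regions the median pooled log2 fold change was 0.029 with no copy, -0.018 with 1 copy, -0.062 with 2 copies and -0.111 with 3 or more. The same medians were 0.050, -0.002, -0.044 and -0.102 for Smndc1 shRNA, and 0.011, -0.035, -0.076 and -0.136 for Atrx shRNA. The comparisons of the 2 shRNAs share the empty vector libraries. With TMM factors the pooled medians were -0.003, -0.048, -0.092 and -0.134, in the same order. The share called lower with trended offsets was 0.172% with no copy, 0.891% with 1, 1.01% with 2 and 2.55% with 3 or more.

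The order also held among promoters below the median level, where the medians ran 0.022, -0.018, -0.040 and -0.086, and among those above it, where they ran 0.035, -0.016, -0.073 and -0.121. Promoters with a copy had a median level of 5.25 log2 CPM and 60.3% GC, against 5.07 log2 CPM and 63.3% GC for those without. The part of base composition in the relation was not tested.

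Library by library, the median deviation of promoters with a CCAAT box minus that of promoters without was 0.045, 0.035 and 0.068 on the log2 scale in empty vector, -0.022, -0.079 and 0.032 with Smndc1 shRNA, and -0.049, -0.025 and -0.009 with Atrx shRNA. With TMM factors it was 0.046, 0.042 and 0.050, then -0.023, -0.061 and 0.010, then -0.028, -0.022 and -0.022. All 6 shRNA libraries were below the 3 controls in both fits, by a mean of -0.075 and -0.070. The highest shRNA value with trended offsets, 0.032 in Smndc1 shRNA replicate 3, was next to the lowest control, 0.035. The motif was picked out on the same libraries, so the difference is a description. An exact permutation test of the libraries, adjusted by Benjamini-Hochberg over the 9 motifs, did not pass for CCAAT (adjusted p = 0.214 in both fits). Of the 9 motifs tried, the groups overlapped for each of the other 8. CCAAT did not have the largest mean shift, however. For the NRF1 palindrome, present in 204 promoters, it was 0.106 with trended offsets and 0.119 with TMM factors, upward with an shRNA.

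**Figure D3:**
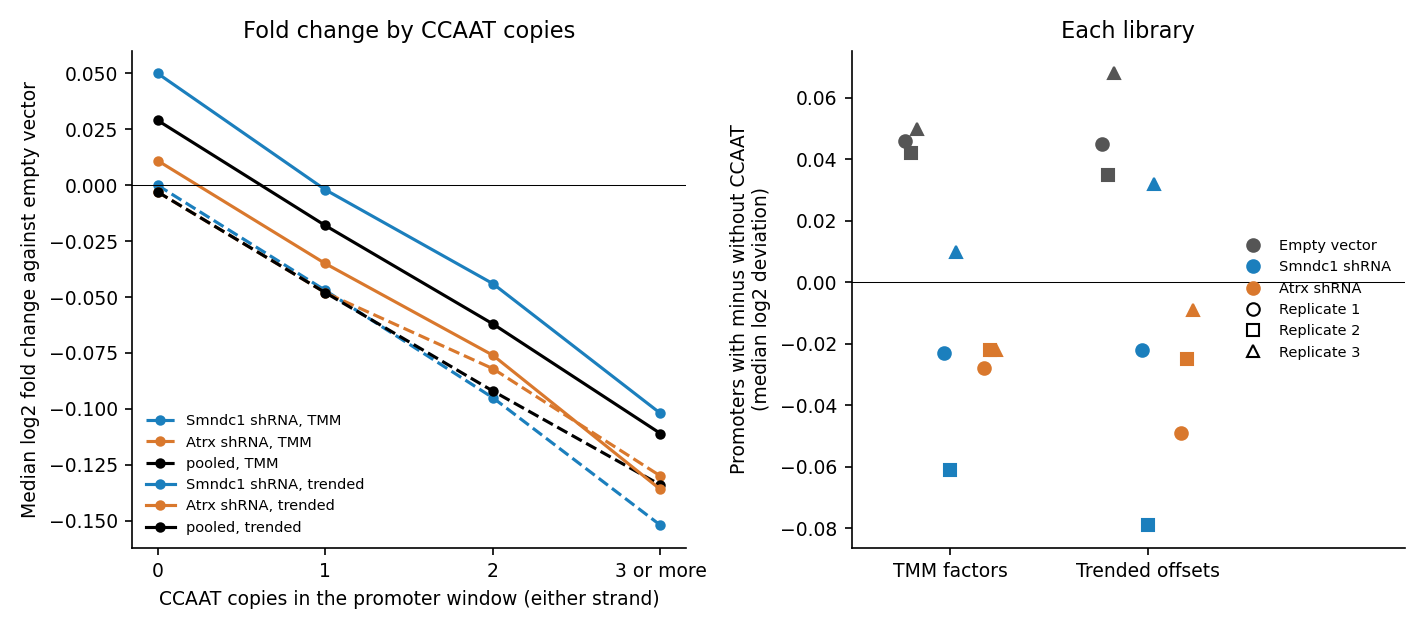
Left, median log2 fold change against empty vector (vertical axis) of promoter regions by the number of CCAAT copies in their window (horizontal axis), for Smndc1 shRNA, Atrx shRNA and both pooled; dashed lines are TMM factors and solid lines trended offsets. Right, for each library, the median log2 deviation of promoters with a copy minus that of promoters without; the pooled median falls from 0.029 with no copy to -0.111 with 3 or more (trended), and all 6 shRNA libraries lie below the 3 empty vector libraries.

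The other motifs were as follows. The GC box (GGGCGG) was in 89.8% of the lower, 60.5% of the higher and 69.2% of all promoters. Counts of the rarer motifs are small. The TATA box (TATAAA) was in 2.04%, 10.5% and 5.98%, the E box (CACGTG) in 8.16%, 13.2% and 10.4%, and the ETS letters CCGGAAGT in 8.16%, 2.63% and 8.7%. The cAMP response element (TGACGTCA) was in 0.0%, 2.63% and 3.53%, the AP-1 site (TGANTCA) in 4.08%, 2.63% and 4.41%, the NRF1 palindrome in 0.0%, 2.63% and 2.35%, and the antioxidant response element (TGANNNNGC) in 46.9%, 34.2% and 43.0%. All were searched on both strands, and overlaps between motifs were allowed. Median GC content was 62.7% in the lower, 65.8% in the higher and 62.0% in all promoters. The 83 copies of CCAAT in the lower promoters lay a median of 146 bases before the start, against 85 for the 5582 copies in all promoters.

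Called regions at endocrine transcription factor genes were all more open with an shRNA. Of 152 regions assigned to the 21 genes of that list, 7 rose and 0 fell, a share of 4.61% against 0.668% of all regions. The median log2 fold change of the list was 0.218 against -0.008 for all regions, and with TMM factors 0.201 against 0.007, with 0 calls. A median of this size was not particular to the list: the 33 regions of Hox genes had 0.225, and 0.199 with TMM factors, with 0 calls. Around the 28 key genes of islet identity and of the targets, 9 of the 138 regions within 10 kb rose and 1 fell, against 1 and 0 with TMM factors. Of the 165 regions assigned to these genes, 9 rose and 1 fell (6.06%, against 0.668% of all regions). The lists and key genes were chosen with earlier results of these data known.

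Irx1 had a second region that rose, 0.70 kb from the gene (chr13:71956211-71957527). It stood at 20.8, 16.5 and 17.8 CPM with empty vector, at 31.3, 30.7 and 31.5 with Smndc1 shRNA and at 32.4, 37.4 and 20.9 with Atrx shRNA (0.74 ± 0.15, adjusted p = 0.00145). The groups did not overlap, with Atrx shRNA replicate 3 just above the highest control. For the region inside Irx1 described above, the trended fit gave 1.15 ± 0.19 (adjusted p = 9.7e-05), and this call held without any of the 9 libraries. Irx2, its neighbor in the same gene cluster, rose less, at a region 0.09 kb away (0.66 ± 0.18, adjusted p = 0.0479). There the groups overlapped: empty vector stood at 12.3, 15.1 and 10.2 CPM and Atrx shRNA at 19.7, 18.1 and 12.5.

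Nkx6-1, a homeobox gene best known from beta cells, had a region inside it (chr5:101662678-101663669) that stood at 16, 19.7 and 15.8 CPM with empty vector. It stood at 29.1, 31.3 and 28.1 CPM with Smndc1 shRNA and at 31.4, 33.7 and 26.7 with Atrx shRNA (0.80 ± 0.15, adjusted p = 0.000526). The groups were well apart, and the call held without any of the 9 libraries.

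The promoter region of Foxa2, a pioneer factor of endoderm, stood at 28.7, 30.2 and 39.2 CPM with empty vector, at 44.8, 50.6 and 45.8 with Smndc1 shRNA and at 41.9, 46.3 and 46.9 with Atrx shRNA (0.50 ± 0.12, adjusted p = 0.0146). The region inside Pax6, a pan-endocrine paired-box gene, stood at 13.2, 14.4 and 11.3, at 24.9, 25.2 and 12.3, and at 25.8, 22.4 and 19.5 in the same order (0.74 ± 0.18, adjusted p = 0.0154). Its groups overlapped because of Smndc1 shRNA replicate 3. At Nkx2-2, a repressor needed for islet cell fate, 2 regions inside the gene rose, by 0.54 ± 0.14 (adjusted p = 0.0354) and 0.49 ± 0.13 (adjusted p = 0.0461).

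Prox1 encodes a homeobox factor of the pancreatic epithelium and liver. Its promoter region rose from 28.7, 21.3 and 18.7 CPM to 39.6, 40.3 and 42.6 with Smndc1 shRNA and to 30.3, 31 and 29.3 with Atrx shRNA (0.61 ± 0.13, adjusted p = 0.006). The fold change was 0.82 with Smndc1 and 0.39 with Atrx shRNA, and the test of that difference gave an adjusted p of 0.206. Of the 12 regions assigned to Prox1, 3 rose.

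Pcsk2 encodes a prohormone convertase of alpha cells. A region inside it rose by 0.55 ± 0.15 (adjusted p = 0.0429). The region that fell among the key genes lies at Mafa, a beta cell factor, at 57, 66.3 and 58.8 CPM with empty vector against 49.5, 48.5 and 51.5 with Smndc1 shRNA and 39.9, 42.5 and 46.7 with Atrx shRNA (-0.40 ± 0.11, adjusted p = 0.0448). The Gcg promoter, which drives glucagon, stood at 36.4, 36.3 and 26.4 CPM with empty vector, at 33.2, 30 and 33.3 with Smndc1 shRNA and at 24.7, 30 and 29.9 with Atrx shRNA. Its groups overlapped (-0.15 ± 0.13, adjusted p = 0.705).

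Apart from the regions inside Irx1 and Nkx6-1, the islet calls each depended on single libraries. Those at Irx2, Pax6, Nkx2-2, Foxa2, Pcsk2 and Mafa were lost without empty vector replicate 1 and also without empty vector replicate 2, at adjusted p values of 0.108 to 0.458. The second Irx1 region was lost without empty vector replicate 2 (adjusted p = 0.103), and the Prox1 promoter without empty vector replicate 2 (0.155) or 3 (0.0869). Of 153 regions of the alpha cell list, 4 rose and 0 fell (2.61%, against 0.668% of all regions; median 0.024), and of 50 of the beta cell list 1 rose and 1 fell (4%). Of 156 regions of granule and exocytosis genes 0 rose and 1 fell (0.641%, near the share of all regions), at the promoter of the vesicle GTPase gene Rab3a (-0.41 ± 0.11, adjusted p = 0.0478).

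Regions at inhibitors of the cell cycle were among those that became more open. Of 138 regions of the cell cycle list 5 rose and 1 fell (4.35%, against 0.668% of all regions), and the risers lie at 3 inhibitors of cyclin-dependent kinases: Cdkn2c with 3 regions, Cdkn1b and Cdkn1a. Of 90 regions of the p53 target list 3 rose, at Bbc3, Cdkn1a and Bax, and 1 fell, at Xpc (4.44%). With TMM factors both lists had 0 calls. The list medians were 0.028 and 0.054, close to that of all regions, so the calls sit at a few genes. The promoter regions of the cell cycle list leaned the other way, at a median of -0.038 with 11 of 29 positive (-0.081 with TMM factors).

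The region 1.25 kb from Cdkn1b, the gene of p27 (chr6:134926777-134927947), stood at 35.1, 36.3 and 31.3 CPM with empty vector, at 50.5, 61.8 and 48.7 with Smndc1 shRNA and at 54.8, 55.9 and 53.2 with Atrx shRNA. The groups were well apart (0.66 ± 0.12, adjusted p = 0.000243), and the fold change was 0.65 with Smndc1 and 0.67 with Atrx shRNA. The region inside Cdkn1a, the gene of p21 and a target of p53 (chr17:29094652-29095198), stood at 34.2, 39 and 35.1, at 50.4, 58.8 and 49.3, and at 58.1, 52.7 and 51 in the same order (0.57 ± 0.12, adjusted p = 0.00184). The promoter of Bbc3, which encodes the pro-apoptotic protein Puma, stood at 70.2, 67 and 65.9, at 84.6, 94.4 and 99.6, and at 94.6, 111 and 93.8 (0.50 ± 0.10, adjusted p = 0.000789). At these 3 genes every shRNA library was above every control. The calls at Cdkn1b and Bbc3 held without any of the 9 libraries, and that at Cdkn1a was lost without empty vector replicate 1 (adjusted p = 0.0904).

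Bax, which encodes a pore-forming protein of the mitochondrial membrane, rose at its promoter by 0.51 ± 0.13 (adjusted p = 0.0327), with overlapping groups. The region inside Xpc, a DNA damage sensor of nucleotide excision repair, fell from 23, 31.3 and 25.7 CPM to 12.7, 13.1 and 19.4 with Smndc1 shRNA and 19.9, 15.8 and 18.2 with Atrx shRNA (-0.70 ± 0.16, adjusted p = 0.00886). The Xpc call was lost without empty vector replicate 2 (adjusted p = 0.306) and that at Bax without any of 5 libraries, the highest adjusted p being 0.361 without empty vector replicate 1.

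**Figure D4:**
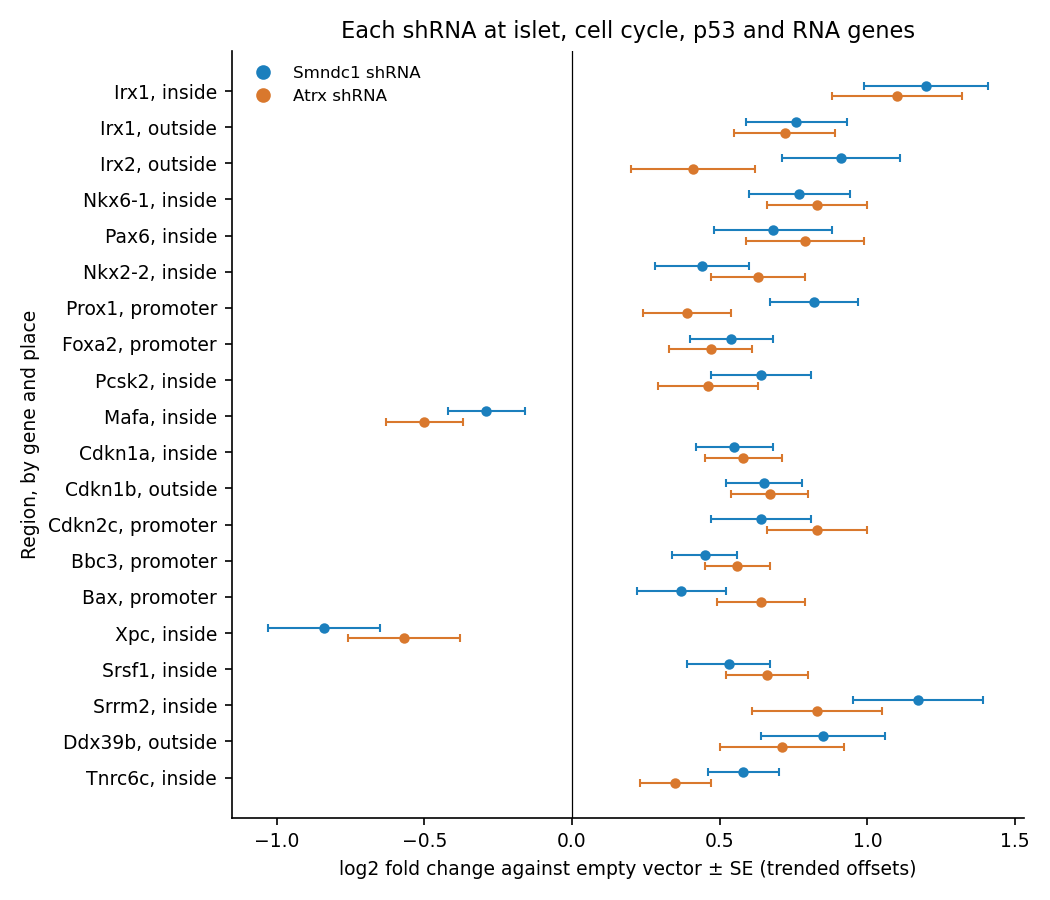
Log2 fold change against empty vector with its SE (horizontal axis, trended offsets) for each shRNA at called regions of islet, cell cycle, p53, splicing and RNA interference genes, named on the vertical axis. Both shRNAs lie on the same side of 0 at each region drawn. The regions were picked from the pooled calls, which itself favors a shared side. Named regions where the shRNAs differed, such as that inside Dbnl, are not drawn. Both shRNAs share the 3 empty vector libraries, so the 2 points of a row are not independent.

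Genes of the splicing machinery, of which SMNDC1 is part, had 4 regions that rose and 0 that fell of 114 (3.51%, against 0.668% of all regions; median 0.050), and 0 calls with TMM factors. The strongest was inside Srrm2, which encodes a scaffold of nuclear speckles (chr17:23822839-23823881). It stood at 8.34, 7.82 and 14.3 CPM with empty vector, at 20.6, 19.8 and 27.3 with Smndc1 shRNA and at 15.4, 14.9 and 23.1 with Atrx shRNA (1.0 ± 0.19, adjusted p = 0.000848). Empty vector replicate 3 was close to the lowest shRNA library. The others were inside Srsf1, an SR protein gene (0.60 ± 0.12, adjusted p = 0.00201), near Ddx39b, an RNA helicase gene of splicing and export (0.78 ± 0.19, adjusted p = 0.0146), and at the promoter shared by Sf3a2, a U2 subunit gene, and Plekhj1 (0.38 ± 0.10, adjusted p = 0.0455). Without empty vector replicate 1 all 4 were lost, at adjusted p values of 0.101, 0.146, 0.132 and 0.146. Without empty vector replicate 2 the adjusted p was 0.122 inside Srrm2, 0.343 near Ddx39b and 0.256 at the Sf3a2 promoter, while the Srsf1 call was kept. The Sf3a2 call was kept in 3 of the 9 fits without a library. At Srsf1 the groups overlapped, with Smndc1 shRNA replicate 3 at 34.4 CPM and empty vector replicate 2 at 37.4.

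Among chromatin remodelers 2 of 228 regions rose and 0 fell (0.877%), near the 0.668% of all regions. The region inside H3f3a, which encodes the histone H3.3 that ATRX deposits, stood at 1.83, 2.06 and 1.92 CPM with empty vector, at 4.28, 7.42 and 5.29 with Smndc1 shRNA and at 9.05, 4.4 and 4.44 with Atrx shRNA. It rose by 1.56 ± 0.38 on the log2 scale without overlap (adjusted p = 0.0176), and was lost without any of 4 libraries, the highest adjusted p being 0.151 without empty vector replicate 1. The other was inside Arid1b (0.42 ± 0.12, adjusted p = 0.0487), where the groups overlapped and the call was kept in 1 of the 9 fits without a library, with adjusted p values of up to 0.403 (without empty vector replicate 1).

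Regions at genes tied to the shRNA itself were called about as often as all regions (0.668%). Of 98 regions at the RNA interference machinery 1 rose (1.02%), inside Tnrc6c, which encodes an Argonaute partner. It stood at 47.9, 51.7 and 49.9 CPM with empty vector, at 75.6, 77.6 and 69.9 with Smndc1 shRNA and at 63.4, 67.9 and 58.6 with Atrx shRNA (0.46 ± 0.10, adjusted p = 0.00777). The groups did not overlap, but the call was lost without empty vector replicate 1 (adjusted p = 0.148) or 2 (0.0745). At interferon and RNA sensing genes 0 of 63 regions were called in either direction, with a median of 0.014, and a list of that size is too small for a count of 0 to differ from the share over all regions.

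The remaining lists had few calls, and at their sizes the counts leave little to read against the 0.668% called over all regions. Zinc finger genes, which form the largest list after the receptors, had 8 that rose and 1 that fell of 1010 (0.891%). Olfactory and vomeronasal receptors had 2 and 0 of 301, keratins 1 and 0 of 89, oxidative and unfolded protein stress 1 and 0 of 106, and cholesterol synthesis 1 and 1 of 74 (2.7%). The 16 promoter regions of cholesterol synthesis genes leaned down, with a median log2 fold change of -0.179 and 1 positive value. With TMM factors their median was -0.182, with 0 positive. AP-1 and immediate early genes had 0 and 1 of 103, and neuronal genes 0 and 1 of 214. The count was 0 of 34 at acinar and ductal genes, 0 of 89 at endothelial, immune and fibroblast genes, 0 of 215 at ribosomal protein genes, 0 of 33 at Hox genes and 0 of 23 at protocadherins, lists too small for a count of 0 to stand apart. The median log2 fold change was -0.197 at protocadherins (7 of 23 positive) and 0.225 at Hox genes (21 of 33 positive).

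A stricter question is whether a region moved with each shRNA taken alone. For this test the larger of the 2 edgeR p values, Smndc1 shRNA and Atrx shRNA each against empty vector, was adjusted over all regions, and both folds had to share a sign. With TMM factors 0 regions passed, against 1382 (1.72%) with both unadjusted p values under 0.05. In the trended fit 8 regions passed as higher (0.00996%) and 1 as lower (0.00124%). Both comparisons use the same 3 empty vector libraries, so a control library that is off moves both.

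The lowest p belonged to a region 6.91 kb from Rdm1, a gene related to RAD52 (chr11:101642994-101643598). It stood at 17.5, 18.1 and 16.5 CPM with empty vector, at 32.3, 34.7 and 27.9 with Smndc1 shRNA and at 35.4, 32 and 40.1 with Atrx shRNA. The pooled log2 fold change was 0.95 ± 0.14 (adjusted p = 9.77e-06, the lowest of the pooled test), and the test of each shRNA gave 0.0137. The regions inside Mif4gd and Irx1 followed, both at 0.0139. A region inside Msi2, which encodes the RNA-binding protein Musashi 2 (chr11:88594717-88595781), stood at 32.4, 25.6 and 28.1, at 36.5, 64.3 and 38.6, and at 54.5, 53.5 and 48.7 (0.78 ± 0.12, each-shRNA adjusted p = 0.0213).

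The other regions higher with each shRNA were those near Cdkn1b (0.0213), 180.28 kb from Mkln1 (0.71 ± 0.13, 0.0343), inside Sulf2, a heparan sulfate sulfatase gene (0.53 ± 0.10, 0.0385), and 2.15 kb from Tomm7, a gene of mitochondrial import (0.85 ± 0.15, 0.0461), where the last value is the each-shRNA adjusted p. The region that was lower lies 34.71 kb from Cd93, a surface receptor gene, and stood at 37.9, 30 and 30.8 CPM with empty vector against 21.9, 15.4 and 18.1 with Smndc1 shRNA and 22.3, 18.2 and 15.5 with Atrx shRNA (-0.82 ± 0.15, 0.0477). These calls were fragile to the loss of a library: in the 9 fits without 1 library, Rdm1 and Irx1 passed the each-shRNA test in 5, Mif4gd in 4, Msi2 and Mkln1 in 3, Cdkn1b and Tomm7 in 2, and Sulf2 and Cd93 in 1.

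A pooled call can also come mainly from 1 shRNA. Smndc1 and Atrx shRNA differed from each other at 18 of the 537 called regions (3.35%), 2 higher and 16 lower, and at all 18 the larger fold was that with Smndc1 shRNA. Over all regions tested, 0.205% were higher and 0.387% lower with Smndc1 than with Atrx shRNA. At the region inside Dbnl, an actin-binding adaptor gene, empty vector stood at 5.75, 7.26 and 8.37 CPM and Atrx shRNA at 9.91, 6.85 and 8.87, while Smndc1 shRNA stood at 26.3, 21.5 and 29. The pooled fold change of 1.06 ± 0.21 there joins 1.85 with Smndc1 and 0.27 with Atrx shRNA (adjusted p of the difference 9.95e-07). A region 31.77 kb from Zfp518b stood at 53.8, 50 and 50.5 with empty vector, 46.5, 49.8 and 55.1 with Atrx shRNA and 23, 22.2 and 29 with Smndc1 shRNA (difference p adjusted 3.59e-08). With TMM factors the 2 shRNAs differed at 0 of the 7 called regions, and over all regions 0.0224% were higher and 0.0535% lower with Smndc1 than with Atrx shRNA. For the 537, the median fold was 0.68 with Smndc1 and 0.67 with Atrx shRNA among the higher regions, and -0.75 and -0.49 among the lower.

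By position, 146 gene body regions rose and 117 fell of 36045, and 86 rose and 101 fell of 35634 between genes. The shares called were 0.73% and 0.525%, near the 0.668% of all regions. Called regions were stronger and wider than the rest: the median mean level was 4.64 log2 CPM for the higher and 4.73 for the lower, against 2.48 for all tested, and the median width was 744 and 625 bp against 501 bp. Of 5453 regions of 1000 bp or more, 63 rose (1.16%) and 16 fell (0.293%). Of 32182 regions of 502 to 999 bp, 130 rose (0.404%) and 234 fell (0.727%). Over all regions the shares were 0.336% and 0.332%. In the strongest 10% of regions 2.18% were called, and in the weakest 0.0373%.

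Chromosome 11 held 59 of the 270 higher regions and 17 of the 267 lower ones, among 7678 tested, with a median log2 fold change of 0.094. These are 0.768% higher and 0.221% lower, against 0.336% and 0.332% of all regions. The median deviation of chromosome 11 regions was -0.115, -0.112 and 0.086 in empty vector, 0.035, -0.007 and 0.141 with Smndc1 shRNA and -0.086, -0.011 and 0.119 with Atrx shRNA. Replicate 3 was the highest in each group, and the groups overlapped. The part of these shifts in the calls on chromosome 11, those at Rdm1, Msi2, Mif4gd, Snap47, Srsf1 and Tnrc6c among them, was not tested. On X 1 region rose and 7 fell of 1275 (0.627% called, near the 0.668% of all regions), with a median of -0.135.

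The number of regions called varied with the library that was left out. With trended offsets 60 regions (30 higher and 30 lower) passed without empty vector replicate 1, all of them among the 537, and 95 (46 and 49) without empty vector replicate 2, 91 of them among the 537. Without Smndc1 shRNA replicate 3 the counts were 577 and 466, and without empty vector replicate 3 they were 308 and 270. With TMM factors the largest counts also came without a replicate 3 library, at 106 and 108 without that of empty vector and 31 and 48 without that of Smndc1 shRNA. Of the 537, 26 (16 higher and 10 lower) passed in all 9 such fits, 10 of them on chromosome 11.

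**Figure D5:**
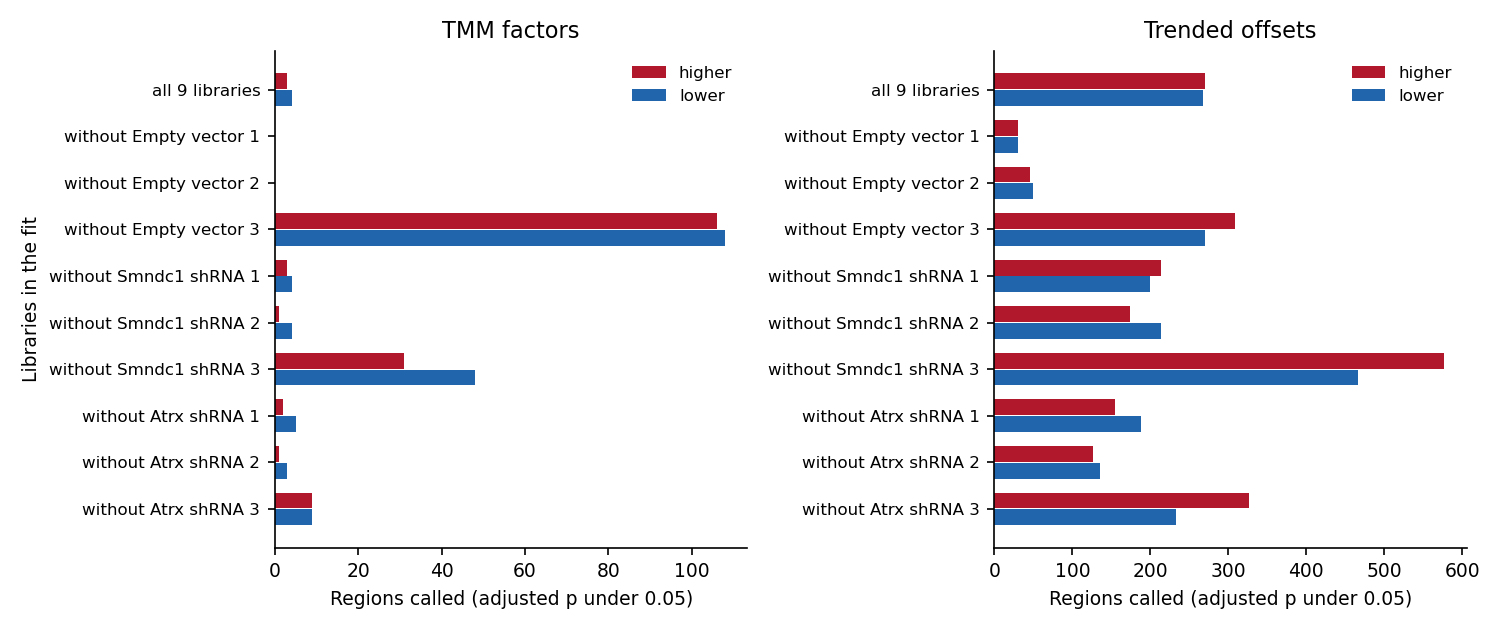
Number of regions called higher (red) and lower (blue) with all 9 libraries and without each library in turn, with TMM factors on the left and trended offsets on the right; bars start at 0 and the axes differ. Without empty vector replicate 1 or 2 the counts fall to 0 with TMM factors and to 60 and 95 with trended offsets.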

How the data were processed

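The authors deposited raw counts for 80827 consensus regions in 9 libraries (75 bp paired-end reads) and the position of each region on mm10. Per the submitters' processing notes the tools were MACS2 2.2.7.1, bedtools 2.27.1, Bowtie2 2.4.4, deepTools 3.5.1 and SAMtools 2.8.0. Not given in the sources used here is what each did, nor what was counted (reads, fragments or insertions). Each column was matched to a labelled sample.

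Counts were tested in R 4.3.3 with edgeR 4.0.16, by its quasi-likelihood method (TMM factors, filterByExpr with a minimum count of 10, robust dispersion, 3 group coefficients). The contrast was the mean of the 2 shRNA coefficients minus empty vector, and 482 regions fell below the filter. P values were adjusted by Benjamini-Hochberg over the 80345 regions tested. Trended offsets are a loess curve (span 0.3) of each library against mean log2 count. Standard errors are on the log2 scale. Depth limits weak regions: the median count per region was 28 to 39.

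Regions were placed with RefSeq coding genes of GRCm38.p6. Promoter windows were at hand for 17491 of 21896 coding genes, so some regions placed in gene bodies or between genes may be promoters. A region was assigned to a gene it lies in or to the nearest within 50 kb. Named regions have an adjusted p under 0.05, a mean log2 CPM of at least 1 and no overlap between shRNA and control libraries: up to 8 promoter and 7 other regions at each end of the fold changes (5 and 4 with trended offsets). Added are up to 4 called members of each list, called regions within 10 kb of 28 key genes, the promoters of Smndc1, Atrx and Gcg, regions of the each-shRNA test, 4 where the shRNAs differ, and Ube2c. The promoter motifs, Ube2c and the 3 regions beyond the first 6 of the each-shRNA test were chosen after values were seen. The groups, lists and key genes were chosen with earlier results of these data known. Alternatives used DESeq2 1.42.0, limma 3.58.1 (voom), other size factors, filters, thresholds and subsets of libraries. The tables come from pandas 2.3.3 and numpy 2.4.6 under Python 3.11.15, the plots from matplotlib 3.10.9.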

Additional observations from a re-analysis of the deposited data

Results flagged for a closer look

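At the promoter of Zmynd11, Smndc1 shRNA replicate 2 stood at 44.8 CPM, apart from the other 5 shRNA libraries, of which the next was at 33.9. At the region 2.90 kb from Cdkn2c the same library stood at 55.8 CPM and the next at 38.2. Both were found by Dixon's test among 70 such tests on the 6 shRNA libraries, of which chance marks about 1 in 20.

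The effects of the 2 shRNAs differed at 4 named regions by the edgeR test of Smndc1 minus Atrx shRNA. The difference in log2 fold change was 1.57 inside Dbnl (adjusted p = 9.95e-07), 1.12 at 23.67 kb from Abr (2.55e-06), -0.85 inside Paxip1, a gene of the DNA damage response (9.51e-05), and -1.04 at 31.77 kb from Zfp518b (3.59e-08). Abr held 16.2, 14.3 and 18.2 CPM with empty vector, 44.1, 40.1 and 36.2 with Smndc1 shRNA and 21, 13.9 and 20.3 with Atrx shRNA. Paxip1 held 47.2, 40.6 and 50.1, then 15.7, 23.7 and 26.8, then 41.6, 40.3 and 36.5.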

How the results depend on the processing

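With TMM factors 3 regions were higher and 4 lower, and 0 passed the each-shRNA test. The counts (higher, lower) were 270 and 267 with trended offsets, 6 and 7 with DESeq2 size factors in edgeR, and 3 and 7 with library totals only. They were 0 and 0 with DESeq2 (5020 at an unadjusted p under 0.05) and 0 and 1 with limma voom (5842). At a mean count of at least 50 they were 23 and 25, and with the 6 shRNA libraries as 1 group 0 and 0 (5683). Without the third replicate of every group they were 106 and 163. At an adjusted p under 0.01 they were 0 and 0, and under 0.1 they were 10 and 21. Leaving out 1 library gave 0 to 106 higher and 0 to 108 lower, and 0 to 1 in the each-shRNA test. With trended offsets it gave 30 to 577 higher (127 and 155 without Atrx shRNA replicate 2 and 1, 174 without Smndc1 shRNA replicate 2), 30 to 466 lower (136 without Atrx shRNA replicate 2) and 0 to 29 in the each-shRNA test, against 9 with all libraries. The trended counts were 83 and 72 under 0.01 and 594 and 614 under 0.1, with 0 and 22 in the each-shRNA test. Without the third replicates, an alternative chosen after seeing the data, 457 were higher with trended offsets. The cause of these changes was not tested.

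Trended offsets moved the calls by place from 0 to 38 higher and 49 lower at promoters, from 3 and 2 to 146 and 117 in gene bodies, and from 0 and 2 to 86 and 101 between genes, and those where the shRNAs differ from 0 to 18.

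With a replicate block the counts were 281 and 544 with TMM factors (3 in the each-shRNA test) and 828 and 806 with trended offsets (46). Same-numbered libraries of different groups had deviations correlated at 0.313 to 0.419 for replicate 3 and at -0.039 to 0.254 for replicates 1 and 2. Libraries with different numbers ranged from -0.375 to 0.299. The labels do not say what the numbers mark, and they were not taken as pairs. What the replicate 3 libraries share across groups was therefore not a term of the main fit.

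Among the lower promoters, the share with a CCAAT box ranged from 69.8% to 100% (4 to 100 promoters) when a library was left out, and was 67.3% with the block and 67.7% without the third replicates. Among the higher it was 16.7% to 30.0%, 25% and 25.8%. Of the values of named regions under the alternatives, 591 kept their side of the threshold and 266 lost it, with the direction kept in each.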

Other observations

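Several called regions sometimes fell on 1 gene. Of 462 genes with a called region (trended offsets, edgeR adjusted p under 0.05), 24 had more than 1: 13 with all higher, 9 with all lower and 2 with both. Genes differ in the number and level of their regions, and this count was not tested against either. Pde10a, a cAMP and cGMP phosphodiesterase gene, had 3 of its 64 regions higher, at log2 fold changes of 0.57 to 0.82. Smu1, a spliceosome gene, had 2 of 6 higher (0.76 to 0.93), and Med26, a Mediator subunit gene, 2 of 5 (0.74 to 0.93). Vapb, a gene of endoplasmic reticulum contact sites, had 2 of 11 higher (0.89 to 1.10). Itpkb, an inositol phosphate kinase gene, had 2 of 13 lower (-1.06 to -0.57), and Mapre1, which encodes a protein of microtubule plus ends, 2 of 6 lower (-0.57 to -0.42). Tob1, an antiproliferative gene, had 1 higher (0.59) and 1 lower (-0.57) of 9. These genes were chosen after their values were seen.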
